A study of Mus musculus with 6 samples.

Results

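Collagen chain genes were taken from the deposited expression table as every row whose Ensembl identifier mapped to a mouse symbol made of Col, a type number, the letter a and a chain number. The rule found 41 rows of 13965, for 41 of the 44 such symbols in the annotation, and Col10a1, Col19a1 and Col28a1 had no row. They fell into 11 fibrillar chains, 6 basement membrane chains (type IV), 6 type VI chains and 18 other chains. The row of Col7a1 was joined with the microRNA gene Mir711, and no other collagen row was joined.

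Whole kidneys of mouse embryos (embryonic day 16) gave 6 RNA sequencing libraries, 3 labelled control and 3 labelled mutant. Control kidneys carried the genotype WT, miR-17~92 flx/+, and mutant kidneys Six2-TGC, miR-17~92 flx/flx, so every library held at least 1 floxed allele and only the mutants held the transgene. Six2-TGC expresses Cre recombinase in Six2-positive nephron progenitors, and the floxed miR-17~92 microRNA cluster is designed to be removed in those cells and their descendants, not in stroma, vessels or ureteric bud. The controls carried no transgene by their label, so what the transgene does and what loss of the cluster does cannot be told apart. The labels pair the libraries by litter, with a control and a mutant from each of 3 litters, and how many kidneys made up a library is not given in the sources used here.

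Collagens are trimers of alpha chains wound into a triple helix. Fibrillar collagens, chiefly types I, III and V, form the fibrils of interstitial matrix, and types II and XI are best known from cartilage. Type IV forms the network of basement membranes, with 1 trimer common to nearly all of them and another that podocytes lay down in the mature glomerular filter. Type VI forms beaded filaments around cells, and FACIT collagens bind to the surface of fibrils. In the fetal kidney stromal cells make most interstitial collagen.

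The libraries held 43804667 to 54913325 reads, so 1 CPM, the unit of the table (a read count scaled by its library's total), stood for 44 to 55 reads. The joined row of Mir17hg, the host transcript of the targeted cluster, stood at 34.1, 36.4 and 23.0 CPM in control libraries 1, 2 and 3 and at 53.6, 39.8 and 44.6 CPM in mutant libraries 1, 2 and 3. The row covers more than the floxed segment, so it does not check the deletion. Control library 1 stood apart from the rest in Xist, the X inactivation transcript, at 624 CPM against at most 0.255 CPM in the other 5 libraries. Ddx3y, a Y-linked gene, was present in all 6 libraries, at 53.8 CPM in control library 1 and 82.7 to 125 CPM in the others. Results that bear on this library, and on the X-linked chains, are therefore also given without it.

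Collagen chains together took 8130, 9217 and 9009 CPM in control libraries 1, 2 and 3, and 10771, 11184 and 9860 CPM in mutant libraries 1, 2 and 3. All 3 mutant libraries lay above all 3 control libraries in this sum, with means of 0.879% ± 0.0577 (SD, n = 3) and 1.06% ± 0.0677 (SD, n = 3) of all reads. Per kilobase of transcript, the most abundant chains were the fibrillar Col3a1 (294 ± 16.7 CPM per kilobase in controls and 346 ± 40.1 in mutants) and Col1a2 (236 ± 18.3 and 271 ± 29.0). The basement membrane chain Col4a1 came next in the order, at 215 ± 16.5 CPM per kilobase in controls and 256 ± 20.3 in mutants. Col1a1, Col18a1 and Col4a2 followed at 125, 108 and 101 CPM per kilobase in controls. At the other end, Col22a1, Col17a1, Col6a4 and Col6a5 stood at 0.205, 0.172, 0.248 and 0.268 CPM per kilobase in controls. Col18a1 and Col4a2 lay within 1 SD of each other in controls, and so did Col6a1 (48.6 ± 3.93) and Col26a1 (46.0 ± 6.03).

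**Figure D1:**
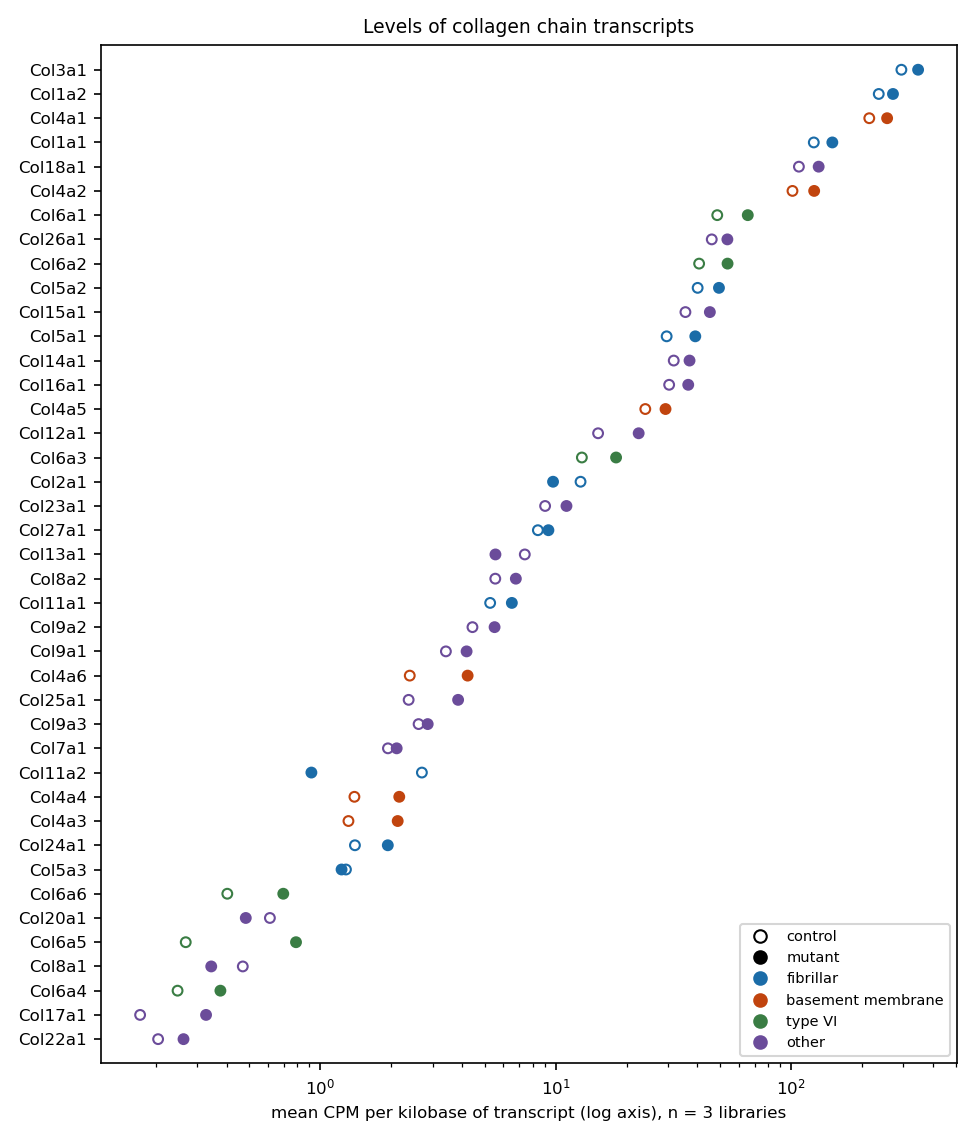
Mean level of each of the 41 collagen chains in CPM per kilobase of transcript on a log axis, with open circles for 3 control and filled circles for 3 mutant libraries and colour by group. Levels run from below 1 CPM per kilobase for Col22a1 and Col17a1 to 294 in controls and 346 in mutants for Col3a1, and the filled circle lies to the right of the open one for 35 chains.

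The microRNAs of the targeted cluster pair with messages through bases 2 to 8, the seed, and the 6 mature sequences that lie in the cluster are shown because collagen 3′ UTRs were searched for their seed matches. They are from RefSeq (GRCm38.p6), on the plus strand of chromosome 14, with the seed in capitals.
miR-17-5p: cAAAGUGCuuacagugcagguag
miR-20a-5p: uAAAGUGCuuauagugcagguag
miR-18a-5p: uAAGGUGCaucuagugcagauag
miR-19a-3p: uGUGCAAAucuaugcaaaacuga
miR-19b-3p: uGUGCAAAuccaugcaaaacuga
miR-92a-3p: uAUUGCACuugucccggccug
MiR-17-5p and miR-20a-5p shared 1 seed, and miR-19a-3p and miR-19b-3p shared another, so the 6 microRNAs carried 4 seeds.

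The sites searched were the exact complements of those seeds (GCACTTT for miR-17-5p and miR-20a-5p, GCACCTT for miR-18a-5p, TTTGCAC for miR-19a-3p and miR-19b-3p, GTGCAAT for miR-92a-3p, sense strand only) in the 3′ UTR of the longest coding transcript, which was found for 39 of the 41 chains. At least 1 site lay in 14 of the 39 collagen 3′ UTRs (35.9%) and in 34.0% of the 13073 3′ UTRs searched in all. By seed, miR-92a-3p sites lay in 6 collagen 3′ UTRs (15.4%, against 7.77% of all), miR-17-5p/miR-20a-5p sites in 5 (12.8% against 14.7%), miR-18a-5p sites in 3 (7.69% against 9.57%) and miR-19 sites in 1 (2.56% against 13.3%). Shown here are the windows of the type I chains, of Col12a1, and of the type IV chains that held a site, read from the GENCODE transcript with the site in capitals.
Col1a1, miR-92a-3p site: tctattcctcaGTGCAATtgtgttgctga
Col1a2, miR-92a-3p site: gtcagagcagtGTGCAATatgatccaact
Col12a1, miR-92a-3p site: tcccaggttttGTGCAATgattgtgttta
Col4a2, miR-17-5p/miR-20a-5p site: aggagatgataGCACTTTtttctatcaaa
Col4a3, miR-17-5p/miR-20a-5p site: ttactaaatgtGCACTTTatccccactcc
Col4a4, miR-17-5p/miR-20a-5p site, first: ttttaagccagGCACTTTaaataattgtg
Col4a4, miR-17-5p/miR-20a-5p site, second: cacttttcagtGCACTTTagaataattga
Col4a1, Col4a5, Col4a6, Col11a2 and the 5 type VI chains searched held no site, and Col6a3 and Col18a1 were not searched.

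Mutant and control kidneys were compared on log2(CPM + 0.5), and differences are mutant minus control on that scale, which understates the change of low rows. Most collagen chains were higher in mutant kidneys: 35 of 41 had a difference above 0, and the median was 0.29, against 0.01 over all tested rows. All 41 rows had at least 1 CPM in 3 or more libraries and were tested, 40 of them with 1 CPM in every library, and Col17a1 in 1 control and 3 mutant libraries. Col17a1, which is among the 35, thus met that rule through the mutants. With genotype alone in the model, 3 chains rose at an adjusted p below 0.05 (Col12a1, Col4a6 and Col6a5, where 0.363% of all tested rows rose) and 1 fell (Col11a2, where 0.196% of rows fell), together 4 chains where 0.559% of rows were called. Paired by litter, 22 chains rose, against 7.93% of all tested rows, and 2 fell, Col2a1 and Col11a2, against 3.51%, together 24 of 41 chains where 11.4% of rows were called.

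Across libraries, 20 chains had all 3 mutant values above all 3 control values, which held for 10.2% of all tested rows, and 3 chains (Col8a1, Col11a2 and Col13a1) had all below, which held for 7.12%. In 28 chains the mutant was above the control in 3 of 3 litters, against 28.3% of all tested rows. In 5 it was below in 3 of 3, but the share of all rows below in 3 of 3 was not computed, so nothing is read from that count. The median collagen difference was 0.42, 0.29 and 0.18 in litters 1, 2 and 3, while over all tested rows it was 0.0014, 0.020 and 0.024. The order of the litters was not the same in every group: fibrillar chains had litter medians of 0.48, 0.18 and 0.08, basement membrane chains 0.39, 0.52 and 0.39, and type VI chains 0.55, 0.50 and 0.41. Of the 24 chains called in the paired model, 15 were called with each litter left out in turn. With a litter left out, few libraries remain and the paired p-values rest largely on variance shared over rows, so they are a weak check. Without litter 1, which holds control library 1, 14 chains rose and 1 fell in the paired model, while over all rows 304 rose and 77 fell. With genotype alone, 5 chains rose without control library 1, where Col4a3 (0.80, adjusted p = 0.0315) and Col25a1 joined the 3 above. Leaving out control library 2, control library 3, mutant library 2 or mutant library 3 left 1 chain that rose. Over all rows 67 rose without control library 1, and 14, 25, 13 and 7 rose in those other fits in the same order, against 50 with all libraries. Leaving out litter 2 or litter 3 left no chain called, and over all rows none rose and 6 and 1 fell. In whole kidney RNA, more cells of a type and more RNA per cell cannot be told apart.

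**Figure D2:**
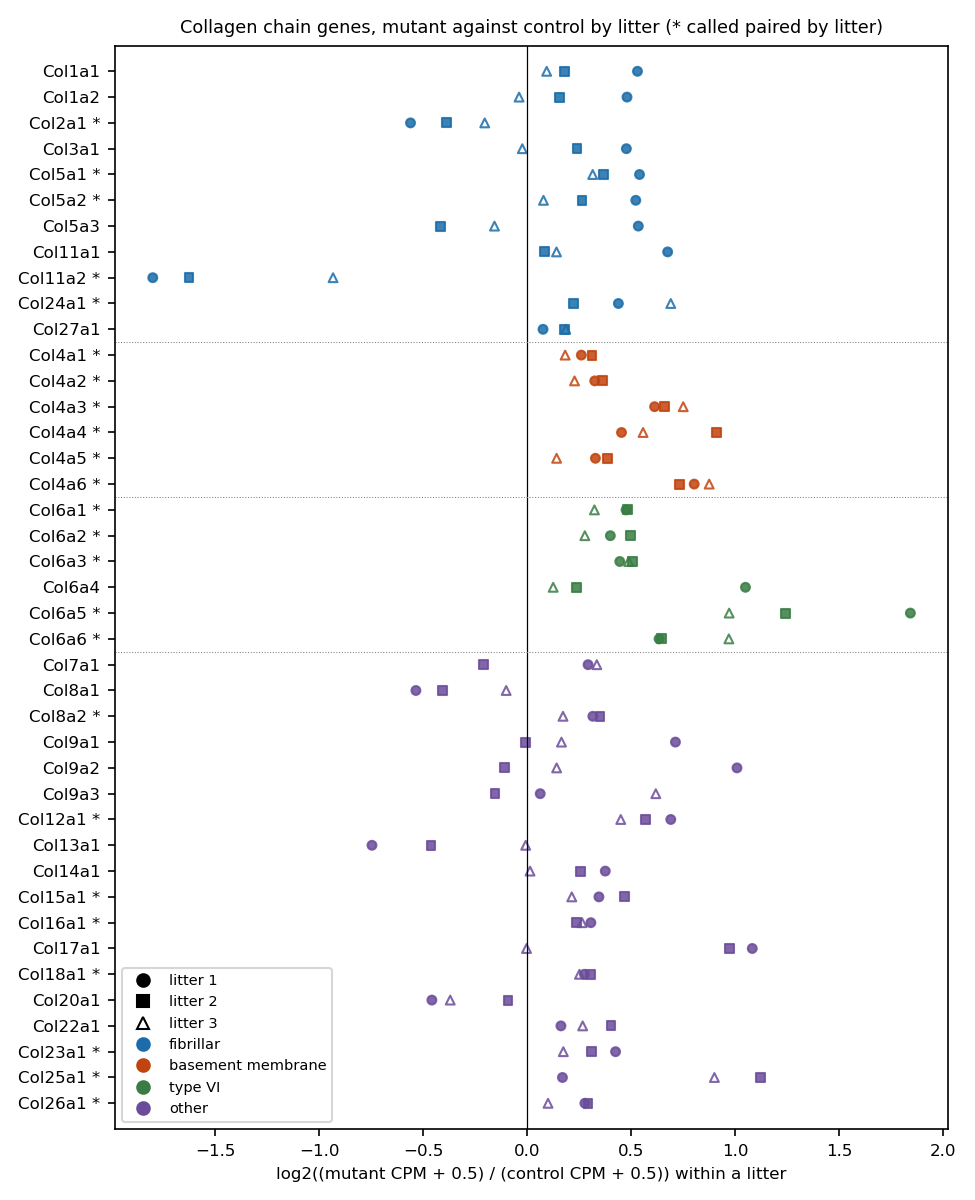
Log2 ratio of mutant to control CPM, each with 0.5 added, for the 41 collagen chains within litters 1 (circles), 2 (squares) and 3 (open triangles), with colour by group and a star at chains called in the paired model. All symbols of the basement membrane and type VI groups lie to the right of 0, and Col11a2 and Col2a1 lie to the left in every litter.

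Among fibrillar chains, 3 of 11 rose in the paired model (Col5a1, Col5a2 and Col24a1) and 2 fell. Over all tested rows 7.93% rose and 3.51% fell in that model. The median difference of the fibrillar chains was 0.23. Col1a1 and Col1a2, which pair in the type I trimer, and Col3a1, the type III chain, were the most abundant fibrillar messages and did not pass the test. Col1a1 stood at 631, 824 and 767 CPM in control libraries 1, 2 and 3 and at 911, 934 and 818 CPM in mutant libraries 1, 2 and 3. Col1a2 stood at 1148, 1307 and 1327 CPM in controls and at 1601, 1454 and 1291 CPM in mutants. Col3a1 stood at 1541, 1643 and 1727 CPM in controls and at 2144, 1939 and 1699 CPM in mutants. In each of the 3 genes the groups overlapped, the widest gap was in litter 1, and in litter 3 Col1a2 and Col3a1 were slightly lower in the mutant. The differences were 0.27 for Col1a1 (SE 0.10, adjusted p = 0.328, paired 0.0518), 0.20 for Col1a2 (SE 0.09, 0.436, paired 0.149) and 0.23 for Col3a1 (SE 0.09, 0.329, paired 0.0928). Without litter 1 the paired adjusted p was 0.280 for Col1a1, 0.703 for Col1a2 and 0.478 for Col3a1. All 3 passed the paired test without litter 2 (0.00227, 0.0404 and 0.0305 in the same order) and without litter 3 (0.000451, 0.000702 and 5.25e-05). With genotype alone, no chain was called without litter 2 or without litter 3. Such paired fits hold few libraries and draw most of their variance from all rows, so they are a weak check. Per kilobase, the ratio of Col1a1 to Col1a2 was 0.528 ± 0.0372 (SD, n = 3) in controls and 0.555 ± 0.0363 in mutants, within the spread of the libraries.

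Type V chains regulate the width of type I fibrils. Col5a1 stood at 221, 281 and 245 CPM in controls and at 321, 362 and 305 CPM in mutants, with no overlap. Its difference was 0.41 (SE 0.10, adjusted p = 0.127, paired 0.00347), and it kept its paired call with length and GC content removed (0.27, adjusted p = 0.0259). Col5a2 stood at 267, 267 and 263 CPM in controls and at 383, 321 and 278 CPM in mutants, the mutants spread widely and the controls hardly at all. Its paired call (difference 0.29, SE 0.11, adjusted p = 0.0408, genotype alone 0.327) was lost without litter 1 (0.221), with the length and GC correction (0.228) and with median-ratio scaling (0.0535). Col24a1, a minor fibrillar chain, stood at 9.86, 11.3 and 8.89 CPM in controls and at 13.5, 13.3 and 14.7 CPM in mutants, without overlap (difference 0.45, SE 0.12, adjusted p = 0.178, paired 0.0335, and 0.122 with the length and GC correction). Its paired call was also lost without litter 1 (0.116) or litter 3 (0.0574). Col5a3 and Col27a1 had differences of -0.01 and 0.15 and passed neither test.

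The 2 fibrillar chains that fell are best known from cartilage. Col11a2 lies at chr17:34039437-34066685 on the plus strand (GRCm38). It stood at 15.2, 22.6 and 11.3 CPM in control libraries and at 3.996, 6.99 and 5.66 CPM in mutant libraries, so the highest mutant was below the lowest control. The difference was -1.45 (SE 0.25, adjusted p = 0.0343, paired 0.00219), which is the largest in size among the 41 chains, and -1.51 after the length and GC correction (paired adjusted p = 0.00156). Without litter 1 its paired adjusted p was 0.00463, but with genotype alone the call was lost without control library 2 (0.0886) or mutant library 3 (0.167). Col2a1, the type II chain, stood at 59.9, 82.7 and 52.8 CPM in controls and at 40.5, 63.1 and 45.7 CPM in mutants. The groups overlapped, but the mutant was lower in 3 of 3 litters (difference -0.38, SE 0.19, adjusted p = 0.480, paired 0.0150, and 0.0937 without litter 1).

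Col11a1, the chain that pairs with Col11a2 in type XI, went the other way without passing the test. It stood at 35.9, 44.6 and 40.7 CPM in controls and at 57.6, 47.3 and 44.9 CPM in mutants (difference 0.30, SE 0.12, adjusted p = 0.385, paired 0.106). Per kilobase, the ratio of Col11a2 to Col11a1 was 0.510 ± 0.148 (SD, n = 3) in controls and 0.145 ± 0.0513 in mutants, and no mutant library reached the lowest control. The ratio of Col2a1 to Col11a2 was 4.86 ± 0.629 in controls and 10.8 ± 1.21 in mutants. The 3 type IX chains, which coat type II fibrils, had differences of 0.29 (Col9a1), 0.35 (Col9a2) and 0.18 (Col9a3), all with paired adjusted p above 0.05. Of 11 cartilage and bone markers, 4 had a row (Acan, Hapln1, Cnmd and Sp7), and Matn1, Matn3, Comp, Snorc, Ucma, Ibsp and Bglap had none. The summed level of those 4 was 23.7 to 29.1 CPM in controls and 27.2 to 34.2 CPM in mutants, most of it Hapln1, and Acan, the main cartilage proteoglycan gene, stayed at or below 1.27 CPM. Cnmd stood at 0.365, 1.18 and 0.627 CPM in controls and at 2.96, 2.82 and 4.24 CPM in mutants. It reached 1 CPM in 1 control library and entered the tested rows through the mutants, so no test is given for it. The part of cartilage RNA in these results was not tested.

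All 6 type IV chains rose in the paired model, in which 7.93% of all tested rows rose. All 6 also had every mutant library above every control library, which held for 10.2% of those rows. Their median difference was 0.47. Col4a1 and Col4a2 make the trimer of nearly all basement membranes, and their genes lie head to head at chr8:11198423-11312826 and chr8:11312805-11449287 (GRCm38), with starts 21 bases apart. Col4a1 stood at 1297, 1467 and 1500.5 CPM in controls and at 1553, 1821 and 1703 CPM in mutants. Col4a2 stood at 586, 715 and 661 CPM in controls and at 734, 917 and 774 CPM in mutants. The differences were small and alike, 0.25 for Col4a1 (SE 0.08, adjusted p = 0.239, paired 0.00776) and 0.30 for Col4a2 (SE 0.10, 0.256, paired 0.00403). Per kilobase, the ratio of Col4a1 to Col4a2 was 2.12 ± 0.109 (SD, n = 3) in controls and 2.05 ± 0.105 in mutants. Without litter 1, the paired adjusted p was 0.0812 for Col4a1 and 0.0457 for Col4a2. The exons of the pair overlap by 22 bases on opposite strands, and whether reads were counted by strand is not given in the sources used here.

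Col4a3 and Col4a4 make, with Col4a5, the trimer of the mature glomerular basement membrane, and they too lie head to head, at chr1:82586921-82722059 and chr1:82448423-82586849, with starts 72 bases apart. Col4a3 stood at 13.4, 9.41 and 10.996 CPM in controls and at 20.8, 15.1 and 18.8 CPM in mutants. Col4a4 stood at 16.7, 10.4 and 15.3 CPM in controls and at 23.0, 19.9 and 22.8 CPM in mutants. The pair moved by more than Col4a1 and Col4a2: the difference was 0.67 for Col4a3 (SE 0.16, adjusted p = 0.106, paired 0.00332) and 0.64 for Col4a4 (SE 0.17, 0.142, paired 0.00867), although the gap between the pairs was not itself tested. Both kept the paired call without litter 1 (0.0138 and 0.0137) and after the length and GC correction (0.0095 and 0.0255). Per kilobase, the 2 chains stayed near parity, with a Col4a3 to Col4a4 ratio of 0.957 ± 0.111 in controls and 0.981 ± 0.0852 in mutants. Both are low at this stage, at 1.32 and 1.40 CPM per kilobase in controls against 24.0 for Col4a5. Exons of Col4a3 overlap 563 bases of C430014B12Rik on the opposite strand.

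None of the 6 podocyte markers listed rose beside Col4a3 and Col4a4. Their summed level was 430.1 to 540 CPM in controls and 438 to 492 CPM in mutants. Of the 6, 1 (Nphs1, the nephrin gene) fell in the paired model, in which 3.51% of all tested rows fell. Nphs1 stood at 41.0, 40.3 and 47.6 CPM in controls and at 33.1, 34.4 and 40.2 CPM in mutants (paired adjusted p = 0.0286). The part of podocytes in the differences of Col4a3 and Col4a4 was not tested.

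Col4a5 and Col4a6 lie head to head on the X chromosome, at chrX:141475385-141689234 and chrX:141165403-141474076, with starts 1309 bases apart, and pair in the membranes of Bowman's capsule and collecting ducts. Col4a6 stood at 14.9, 19.1 and 13.9 CPM in controls and at 26.4, 32.0 and 25.9 CPM in mutants. It had the largest type IV difference, 0.80 (SE 0.14, adjusted p = 0.0381, paired 0.00132), and was the only type IV chain called with genotype alone. Without control library 1, which holds Xist, the difference was 0.76 (adjusted p = 0.0406), and without litter 1 the paired adjusted p was 0.00465. The call with genotype alone was lost without control library 3 (0.130), mutant library 2 (0.132) or mutant library 3 (0.146). Col4a5 stood at 165, 144 and 162 CPM in controls and at 207, 189 and 179 CPM in mutants (difference 0.28, SE 0.09, adjusted p = 0.233, paired 0.0158). Its paired call was lost without litter 1 (0.103) and with the length and GC correction (0.0954). Per kilobase, Col4a6 stood at 0.101 ± 0.0250 (SD, n = 3) of Col4a5 in controls and at 0.145 ± 0.0208 in mutants. The libraries overlapped in this ratio, with control 2 at 0.130 and mutant 1 at 0.126, and it was not tested.

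**Figure D3:**
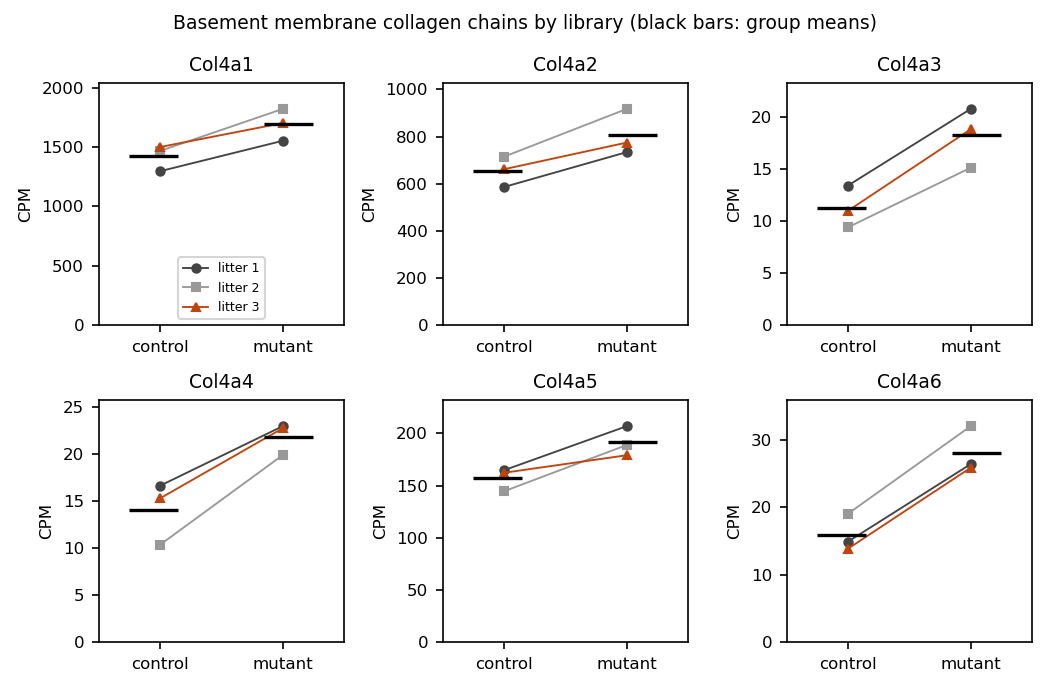
CPM of the 6 type IV chains in the control and mutant library of each litter, with lines joining litter mates, black bars at group means of 3 libraries and every axis starting at 0. All 3 lines rise in every panel, most steeply for Col4a6, from a mean of 16.0 to 28.1 CPM, and for Col4a3, from 11.3 to 18.3 CPM.

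Among type VI chains, 5 of 6 rose in the paired model, where 7.93% of all tested rows rose, and the exception was Col6a4. The median difference of the 6 chains was 0.48. Col6a1, Col6a2 and Col6a3 make the common type VI trimer. Col6a1 stood at 187, 217 and 194 CPM in controls and at 259, 303 and 242 CPM in mutants. Col6a2 stood at 176, 211 and 180.4 CPM in controls and at 233, 299 and 219 CPM in mutants. Col6a3 stood at 128, 144 and 119.9 CPM in controls and at 175, 204 and 168 CPM in mutants. In all 3 the groups did not overlap, and litter 2 was the highest in both groups. The differences were 0.43 for Col6a1 (SE 0.10, adjusted p = 0.103, paired 0.00215), 0.39 for Col6a2 (SE 0.12, 0.232, paired 0.00365) and 0.48 for Col6a3 (SE 0.10, 0.0744, paired 0.00132). The paired adjusted p without litter 1 was 0.0162, 0.0237 and 0.00512, so the 3 calls did not rest on that litter. With the length and GC correction, Col6a1 also passed with genotype alone (0.0319). Per kilobase the chains kept their proportions, with a Col6a2 to Col6a1 ratio of 0.837 ± 0.0184 (SD, n = 3) in controls and 0.817 ± 0.0432 in mutants, and a Col6a3 to Col6a1 ratio of 0.266 ± 0.0141 and 0.276 ± 0.00479.

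Col6a4, Col6a5 and Col6a6 can take the place of Col6a3 in the trimer, and their genes stand in tandem on the minus strand of chromosome 9. All 3 were low. Col6a5, at chr9:105856078-105960643, stood at 2.19, 3.23 and 2.06 CPM in controls and at 9.15, 8.32 and 4.52 CPM in mutants, without overlap. It had the largest rise of the 41 chains, 1.35 (SE 0.25, adjusted p = 0.0475, paired 0.00365), with log2 ratios within litters of 1.84, 1.24 and 0.97. That call with genotype alone lay near the threshold and was lost without control library 2 (0.0683), control library 3 (0.136), mutant library 1 (0.0599) or mutant library 2 (0.142), under median-ratio (0.0518) or trimmed-mean (0.0541) scaling, after voom (0.0626) and with the length and GC correction (0.0641). It was also lost with any 1 litter left out (0.0935, 0.489 and 0.227 for litters 1, 2 and 3). Paired, it was kept without litter 1 (0.00977). Col6a6 stood at 3.26, 5.45 and 1.90 CPM in controls and at 5.34, 8.81 and 4.20 CPM in mutants, where the groups overlapped but each mutant was above its litter mate (difference 0.75, SE 0.32, adjusted p = 0.413, paired 0.0102). Col6a4 had a difference of 0.47 (SE 0.20, adjusted p = 0.404, paired 0.153), most of it from litter 1. Per kilobase, Col6a5 stood at 0.0206 ± 0.00334 of Col6a3 in controls and at 0.0435 ± 0.0139 in mutants.

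**Figure D4:**
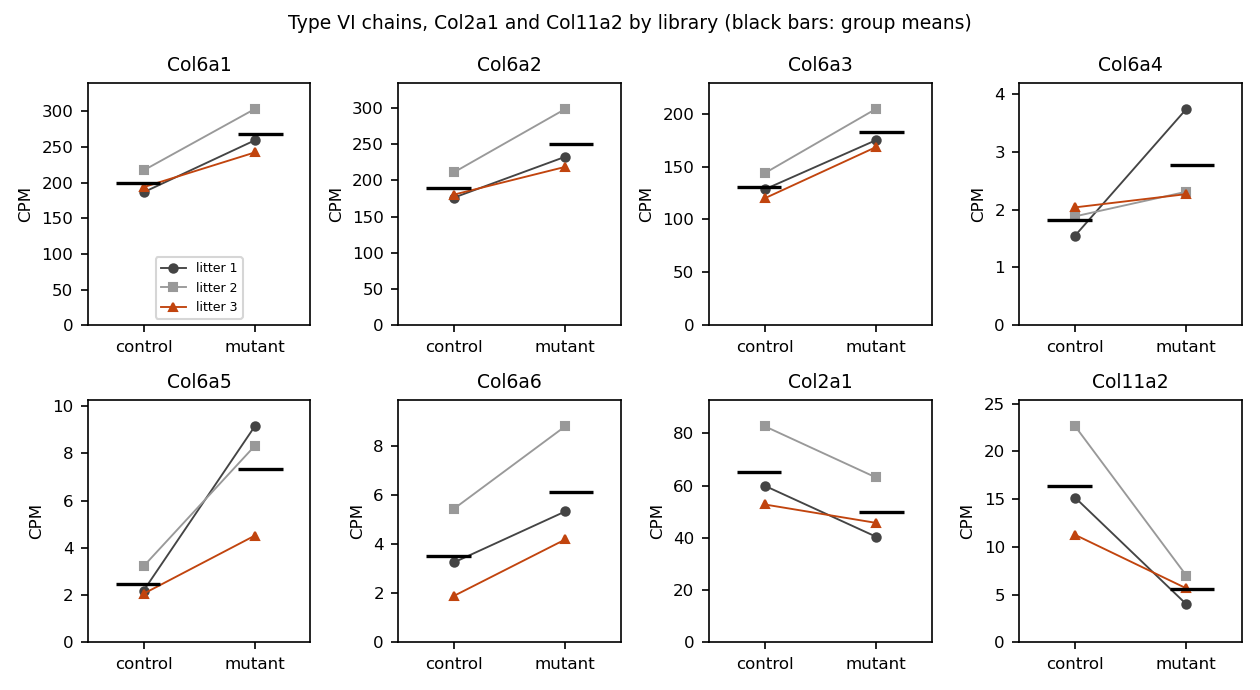
CPM of the 6 type VI chains and of Col2a1 and Col11a2 in the control and mutant library of each litter, with lines joining litter mates, black bars at group means of 3 libraries and every axis starting at 0. Lines rise in all 6 type VI panels and fall in both panels of the cartilage chains, where the Col11a2 mean goes from 16.3 to 5.55 CPM.

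Of the 18 other chains, 8 rose and none fell in the paired model, where 7.93% of all tested rows rose and 3.51% fell. Their median difference was 0.28. Col12a1, a FACIT chain that coats type I fibrils, at chr9:79598991-79718831, had the lowest adjusted p of the 41 chains with genotype alone. It stood at 174, 167 and 182 CPM in controls and at 280.3, 248 and 249 CPM in mutants, well apart. The difference was 0.57 (SE 0.08, adjusted p = 0.0134, paired 0.00132), and 0.38 after the length and GC correction (paired 0.00854). It is also the longest collagen transcript, at 11511 bases. The call with genotype alone was lost without control library 2 (0.0752) or mutant library 3 (0.0826). Col16a1, another FACIT chain, stood at 159.9, 174 and 139.9 CPM in controls and at 198, 205 and 168 CPM in mutants (difference 0.27, SE 0.11, adjusted p = 0.363, paired 0.00799). It was called in the paired model but not without litter 1 (0.0817). The other FACIT chains, Col9a1, Col9a2, Col9a3, Col14a1, Col20a1 and Col22a1, had differences of -0.31 to 0.35 and none passed.

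Col15a1 and Col18a1, the multiplexins, belong to the basement membrane zone, and Col18a1 is the parent of endostatin. Col18a1, the most abundant of the other chains, stood at 538, 670.2 and 604 CPM in controls and at 651, 829 and 719 CPM in mutants. Col15a1 stood at 178, 183 and 190.4 CPM in controls and at 227, 254 and 221 CPM in mutants. Both rose in the paired model, Col18a1 by 0.28 (SE 0.10, adjusted p = 0.334, paired 0.00369) with overlapping groups and Col15a1 by 0.34 (SE 0.08, 0.106, paired 0.00819) with none. Both calls held after the length and GC correction (0.00904 and 0.0128) and without litter 1 (0.0469 and 0.0457).

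Among the 4 transmembrane chains, Col23a1 and Col25a1 rose in the paired model. Col25a1 stood at 22.3, 12.5 and 12.9 CPM in controls and at 25.2, 27.7 and 24.5 CPM in mutants. Control library 1 was close to the mutants, and the other controls were far below them. The difference was 0.73 (SE 0.19, adjusted p = 0.157, paired 0.0248), and without control library 1 it was 0.99 with an adjusted p of 0.00237 with genotype alone. Col23a1 stood at 46.2, 51.6 and 55.3 CPM in controls and at 62.2, 64.1 and 62.5 CPM in mutants (difference 0.30, SE 0.10, adjusted p = 0.240, paired 0.0212). Its paired call was lost without litter 1 (0.149) and with the length and GC correction (0.0776). Col13a1 had a difference of -0.41 (adjusted p = 0.311, paired 0.0752) and did not pass. Col17a1, an epithelial chain, had a difference of 0.68. It reached 1 CPM in 1 control and 3 mutant libraries and so entered the tested rows through the mutants, and its test is not read.

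Col26a1, an extracellular chain, stood at 109, 132 and 142 CPM in controls and at 133, 162 and 152 CPM in mutants (difference 0.22, SE 0.11, adjusted p = 0.505, paired 0.0305). The network-forming chain Col8a2 stood at 22.4, 26.8 and 22.9 CPM in controls and at 28.0, 34.3 and 25.8 CPM in mutants (0.28, SE 0.13, 0.454, paired 0.0388). Both paired calls were lost without litter 1 (0.189 for each) and without litter 2 (0.0603 and 0.118). Col8a1, which can join Col8a2 in type VIII, stood at 3.10, 2.00 and 2.08 CPM in controls and at 1.99, 1.38 and 1.91 CPM in mutants (-0.35, SE 0.20, adjusted p = 0.551, paired 0.167). Col7a1, the chain of anchoring fibrils, had a difference of 0.14 and did not pass.

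Collagen messages are long, and change in these libraries followed transcript length. The median collagen transcript was 6119 bases against 3207 over all tested rows with a length, and 86.4% of those rows were shorter than the collagen median. Spearman's rho between length and difference was 0.44 across 13517 rows, which share libraries and so are no replicates of each other, and it was 0.46 across the 41 chains. With rows split into 10 bins of equal size by length, the bin of the longest had a median difference of 0.17 and the bin of the shortest of -0.11. With each library's smooth trend on length and GC content removed, rho over all rows was 0.01, the median collagen difference was 0.22 in place of 0.29, and the median of all rows was 0.01. In the paired model 17 chains then rose, against 4.26% of rows, and 2 fell, against 2.04%, together 19 chains where 6.3% of rows were called. Of the 24 paired calls, 19 were kept and none was gained, and the 5 lost were Col4a5, Col5a2, Col8a2, Col23a1 and Col24a1. By group, 1 of 11 fibrillar, 5 of 6 basement membrane, 5 of 6 type VI and 6 of 18 other chains rose after the correction, with medians of 0.14, 0.34, 0.37 and 0.22.

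**Figure D5:**
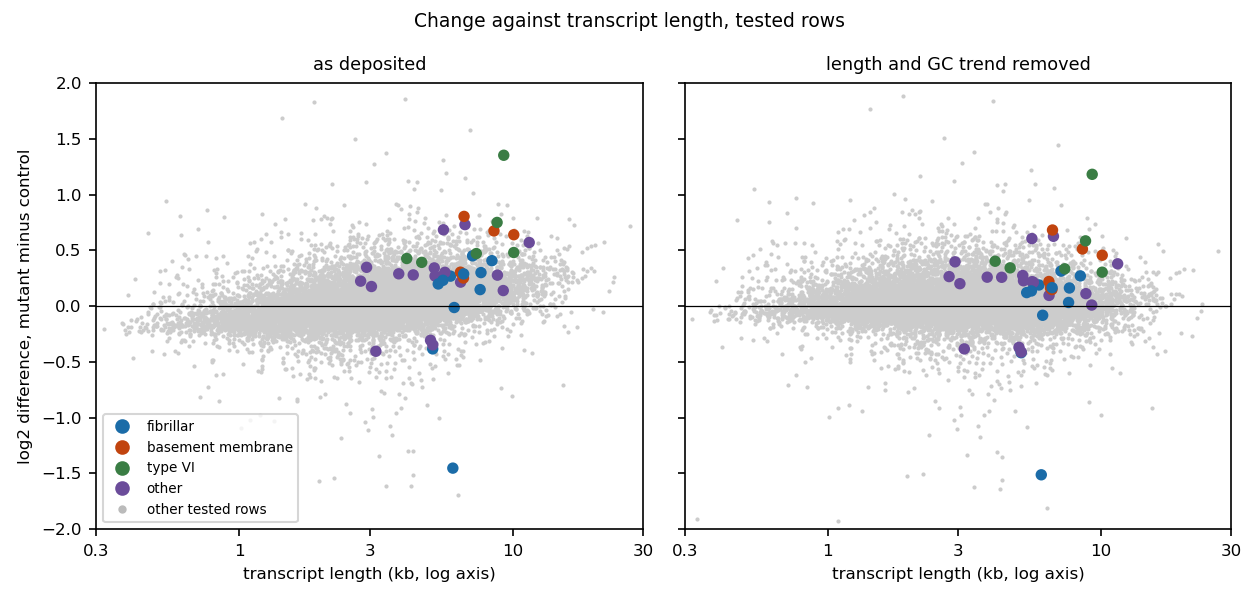
Difference (mutant minus control, log2) against transcript length in kilobases on a log axis for the tested rows, as deposited (left) and with length and GC trends removed (right), with collagen chains coloured by group and 20 rows outside the axes. The grey cloud slopes upward on the left and lies flat on the right, where most collagen points remain above 0.

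Chains with a seed site in the 3′ UTR, among them the type I and type IV chains shown above, had a median difference of 0.36 over 14 chains, of which 8 rose and none fell in the paired model. The 25 chains without a site had a median of 0.28, and 12 rose and 2 fell. In the paired model 7.93% of all tested rows rose and 3.51% fell, and those shares were not split by site. Over all rows the medians were 0.07 with a site and -0.01 without, where the median 3′ UTR was 2265 bases with a site and 811 without. The part of length in that gap was not tested. Chains with a site also had longer 3′ UTRs, with a median of 1787 bases against 877, and Col6a5 and Col4a6, which had the largest rises, held no site. The part of seed sites in the collagen differences was not tested. In the windows of 300 bases around RefSeq starts, found for 32 chains with 35 entries, GGGCGG on either strand lay in 65.7% of collagen windows against 35.7% of all. CCAAT lay in 37.1% against 37.4%, and TATAAA in 11.4% against 13.6%.

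Markers of the cells that make collagen were measured beside these results. In the paired model 7.93% of all tested rows rose and 3.51% fell. The 6 stromal markers summed to 543 to 563 CPM in controls and 653 to 675 CPM in mutants, and 2 of 6 (Pdgfra and Foxd1) rose in the paired model. The 6 endothelial markers summed to 787 to 828 CPM in controls and 916 to 936 CPM in mutants, and 4 of 6 rose (Cdh5, Kdr, Tek and Tie1). The 6 smooth muscle markers summed to 305 to 372 CPM in controls and 313 to 389 CPM in mutants, and none was called paired. The 6 nephron progenitor markers, of the cells that express Six2-TGC, summed to 204 to 232 CPM in controls and 142 to 152 CPM in mutants, and 4 fell. Of 6 skeletal muscle markers 1 had a row (4.02 to 5.64 CPM in controls and 4.53 to 6.77 in mutants), and of 6 adrenal markers 2 (4.49 to 5.64 and 4.47 to 4.99). The part of these cell types in the collagen results was not tested.

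Genes that make, assemble, bind and degrade collagen had smaller differences by their median than the chains. Of 59 such genes 54 had a row, and with genotype alone none was called by limma, on log values or after voom. In those fits 9 and 8 had an unadjusted p below 0.05. The share of all rows at that threshold is not given here, so nothing is read from those counts. In the paired model 13 rose, against 7.93% of all tested rows, and none fell. After the length and GC correction 11 rose, against 4.26%. The median difference was 0.16, against 0.29 for the chains as deposited, and 0.16 against 0.22 after the correction. Among the 21 measured genes of maturation in the endoplasmic reticulum, 2 rose, a share near that of all tested rows: Plod1, a lysyl hydroxylase (0.20, paired adjusted p = 0.0304), and Fkbp10, a prolyl isomerase (0.16, 0.0495). Serpinh1, the collagen chaperone, and P4hb, a subunit of prolyl hydroxylase, had differences of -0.07 and 0.06.

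Among 18 genes of processing and cross-linking, 4 rose in the paired model, in which 7.93% of all tested rows rose. Pxdn, the peroxidase that forms the sulfilimine cross-links of type IV collagen, stood at 274, 313 and 316 CPM in controls and at 366, 432 and 412 CPM in mutants, without overlap. Its difference was 0.42 (SE 0.09, adjusted p = 0.0744, paired 0.00132), and it was kept without litter 1 (0.0098) and after the length and GC correction (0.00305). Adamts2, which removes the amino-terminal propeptide of fibrillar chains, and Lox, a cross-linking oxidase, rose by 0.38 and 0.20 (paired 0.0309 and 0.0344), and neither passed after the correction (0.134 and 0.0811). Among 7 receptor genes, Itga1 and Ddr2 rose by 0.37 and 0.24 (paired 0.0122 and 0.0388), and neither passed after the correction (0.110 and 0.321). Among 8 genes of turnover 5 rose, led by the protease Ctsk (0.50, paired 0.0332), the inhibitor Timp3 (0.32, 0.0207) and the endocytic receptor Mrc2 (0.26, 0.0111). Without litter 1, only Pxdn of the 54 was called in the paired model, in a fit that called fewer of all tested rows as well.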

How the data were processed

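The deposited table held CPM, read counts that the authors had scaled to the library total. At library totals of 43804667 to 54913325, all CPM values came out as whole reads (tolerance 0.001), and the rows left out 0.105% to 0.117% of reads. Per the submitters' processing notes, TopHat2 2.0.9, Picard, SAMtools and build NCBIM37 were used. The counting program, annotation and strand setting are not given in the sources used here. Symbols and transcript lengths (longest coding transcript) came from GENCODE M21, and miRNA sequences and promoter windows from RefSeq, both on GRCm38, not the files' build. Symbols were found for 13695 of 13965 rows.

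The 13766 rows that reached 1 CPM in 3 or more libraries were compared on log2(CPM + 0.5) with limma 3.58.1 in R 4.3.3, with the mean-variance trend on. Benjamini-Hochberg adjustment covered all tested rows, with calls made below 0.05. Genotype was the only term, and the alternative added litter as a block. The labels place 1 control and 1 mutant library in each litter. Deviations from group means correlated at 0.619, 0.446 and 0.312 within litters and at -0.514 to 0.172 between them, across 13766 rows that are not independent replicates. Because deviations within a group cancel out, positive values within litters force some negative ones between them, so the contrast overstates the pairing. The length and GC correction removed, in each library, a spline trend (5 degrees of freedom) of the deviation on log2 length and on GC content, for 13517 rows. An exact permutation test of 3 against 3 libraries allows no p below 0.1, so none is given. The code was checked on simulated data.

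Values in every library are given for chains called in either model, the 2 most abundant chains of each group per kilobase and their trimer partners. Pathway genes are named where they lead their list among calls in the paired model. Other genes named were chosen after their values were seen. Members, gene lists and markers were chosen with earlier results of these data known. Alternatives were other scalings, pseudocounts, filters, left-out libraries and litters, and voom.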

Additional observations from a re-analysis of the deposited data

How the results depend on the processing

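Collagen chains that rose numbered 3 with genotype alone and 22 with litter as a block. They numbered 17 with the length and GC correction and the block, and those that fell 2 in both. Over all rows, 50 rose and 27 fell with genotype alone, 1091 and 483 with the block, 168 and 74 with the length and GC correction, and 576 and 276 with both. Pathway genes that rose numbered 0 with genotype alone, 13 with the block, 2 with the correction and 11 with both. With at least 5 CPM required, 33 rows rose.

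The settings that follow were chosen after the data were seen. Voom on the recovered reads with the block gave 22 chains that rose and 2 that fell, 1067 and 483 rows, and 12 pathway genes. Median-ratio scaling with the block gave 21 and 2 chains, 909 and 593 rows, and 10 pathway genes. Trimmed-mean scaling with the block gave 21 and 2 chains, 927 and 560 rows, and 11 pathway genes. With the block and 1 litter left out, 14, 26 and 27 chains rose and 1, 2 and 3 fell (without litters 1, 2 and 3), 304, 951 and 1506 rows rose and 77, 452 and 842 fell, and 1, 10 and 24 pathway genes rose. More rows rose without litter 3 than with the block and all litters (1091), and these small fits are a weak check of the calls.

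With genotype alone and 1 library left out, 1 to 5 chains rose and 0 to 1 fell, 7 to 67 rows rose and 13 to 33 fell, and 0 to 1 pathway genes rose. With 1 litter left out, 0 to 2 chains rose and 0 to 1 fell, 0 to 59 rows rose and 1 to 33 fell, and 0 to 1 pathway genes rose. In the fits without litter 2 and without litter 3, where no chain was called, 22 and 23 chains had an unadjusted p below 0.05. The share of all rows below that unadjusted threshold is not given here, so nothing is read from these 2 counts. The median collagen difference stayed between 0.22 and 0.36 in all settings run, and none of the 29 chains with values given in every library changed sign. Col5a3 and Col9a3 did when litter 3 was left out, and Col5a3 also when litter 2 was. Both also changed sign in some fits with a single library left out. No pathway gene fell in any. The causes of these shifts were not tested.

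The planned edgeR and DESeq2 alternatives were not run, because the table holds CPM, with fewer low values than were needed for the recovered reads to be accepted as counts. Col17a1, Col22a1 and Col6a4 rest on the fewest reads, 134, 248 and 252 over the 3 controls. Without litter 1, 9 of the 24 paired calls were lost.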
